A study of Monodelphis domestica with 8 samples.

Results

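Bivalent chromatin is the name for regions that carry both H3K4me3, the histone mark of promoters, and H3K27me3, which Polycomb repressive complex 2 deposits. In mammalian embryonic stem cells it is known from CpG-rich promoters of developmental genes, which are held at low expression until a lineage is chosen, and H3K9Ac is a mark of active promoters. The bivalent peaks described here were chosen by the overlap of the deposited peak lists, as H3K4me3 peaks on chromosomes 1 to 8 that share at least 1 bp with an H3K27me3 peak, touch no H3K9Ac peak and lie outside long H3K27me3 domains. A long domain is a stretch of H3K27me3 peaks less than 5 kb apart whose joined length is over 20 kb, the kind of territory known in mammals from clusters of developmental genes. Of 22086 autosomal H3K4me3 peaks, 2500 met the rule, which is 11.3% (exact 95% binomial interval 10.9% to 11.7%), and the series holds 23987 H3K4me3 peaks in all. They made up 83.2% of the 3003 autosomal H3K4me3 peaks with H3K27me3 and no H3K9Ac, and the other 503 lay in long domains.

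The peaks come from chromatin immunoprecipitation and sequencing of fetal brain from females of a laboratory marsupial, the gray short-tailed opossum Monodelphis domestica, taken on embryonic day 13. The 8 libraries comprised 2 for each of H3K4me3, H3K9Ac, H3K9me3 and H3K27me3, with Upstate-Millipore antibodies. For each mark, 1 library came from a cross of an LL2 mother with an LL2 father and 1 from a cross of an LL1 mother with an LL2 father. Each library was made from 2 pooled sister fetuses, and the chromatin of a pool, cut with micrococcal nuclease, was divided among the antibodies, so the marks share their source. The fetuses carried no treatment or engineered allele named in the labels.

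Both libraries of a mark point to a single deposited peak list, so every value below is the authors' pooled value, with no replicate error. No test compares samples, and peaks of a list are not replicates of a condition. Intervals are exact binomial ones that cover the counting of peaks only, and the read depth behind the lists is unknown. Whether both marks sit on the same nucleosomes, or on different cells or alleles of the brain tissue, cannot be told apart in lists from bulk chromatin. Positions are those of the lists, counted from 1, in a genome build not given in the sources used here. Regions are therefore named by position, without genes or sequence, and the brain origin was not checked against marker genes.

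The bivalent peaks outside long domains were weak to moderate H3K4me3 peaks. Their median H3K4me3 score, the value that the authors' peak list gives each peak, was 213 (quartiles 109 and 408). The same median was 130 for bivalent peaks in long domains, 658 for the 644 peaks with all of H3K4me3, H3K27me3 and H3K9Ac, and 809 for the 8713 peaks with H3K9Ac and no H3K27me3. For the 9726 peaks with H3K4me3 alone it was 154. This last order turned round among the top-scoring 50% of the lists, with medians of 524 and 569 when only H3K4me3 and H3K27me3 were restricted and 565 and 645 when every list was. The upper quartile of the bivalent peaks outside long domains lay below the lower quartile of acetylated peaks without H3K27me3, 437, and above the upper quartile of peaks with H3K4me3 alone, 385.

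By width, too, the bivalent peaks lay below acetylated peaks. The median width was 1794.5 bp for bivalent peaks outside long domains, 1604 bp for those in long domains, 2942 bp for peaks with all 3 marks, 2752 bp for acetylated peaks without H3K27me3 and 1502 bp for peaks with H3K4me3 alone. Bivalent peaks outside long domains were narrower than those in long domains among the top-scoring 50% of the lists, at 2775 bp against 3677 bp, and at 2888 bp against 3846 bp when H3K9Ac was restricted too. The narrowest of the 2500 spanned 562 bp and the widest 9376 bp. Score and width rose together across the 2500 peaks (Spearman rho 0.87, Pearson r 0.82, both taken from the same list). A wide peak has more room to meet H3K27me3, so width is not independent of the rule.

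**Figure D1:**
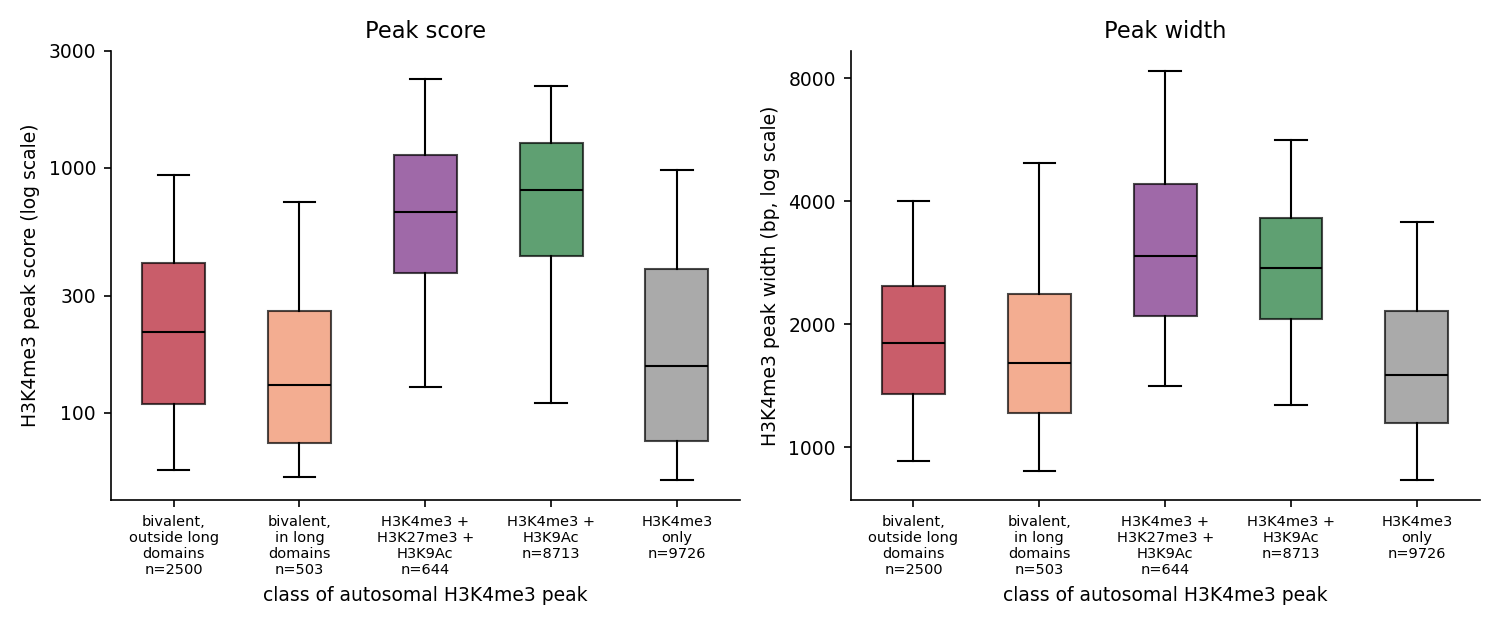
H3K4me3 peak score (left, log scale) and peak width in bp (right, log scale) of the 5 classes of autosomal H3K4me3 peak, with boxes at the quartiles, lines at the medians and whiskers at the 5th and 95th percentiles. Bivalent peaks outside long domains have a median score of 213, above the 154 of peaks with H3K4me3 alone, an order that turns round among the top-scoring 50% of the lists (524 and 569), and below the 809 of acetylated peaks.

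As a share of all autosomal H3K4me3 peaks, bivalent peaks outside long domains were most frequent in the lower middle of the list. When the autosomal peaks were divided into 10 equal parts by score, bivalent peaks outside long domains made up 9.33% of the lowest part and 18.7% of part 4 (17.1% to 20.4%), which spans scores of 148 to 231. Their share was 18.5% in part 5 and 1.67% in the highest part (1.18% to 2.30%), which starts at a score of 1343. The share of acetylated peaks without H3K27me3 ran from 6.07% in the lowest part to 84.3% in the highest. The rule excludes acetylated peaks, so the shares of both classes are not independent, and the cause of the decline at high scores was not tested. Beside peaks with H3K4me3 alone, bivalent peaks outside long domains numbered 206 against 1768 in the lowest part and 414 against 1229 in part 4. In the highest part they numbered 37 against 174. By width the bivalent share was highest in part 4, at 15.9%, and lowest in part 10, at 5.48%.

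**Figure D2:**
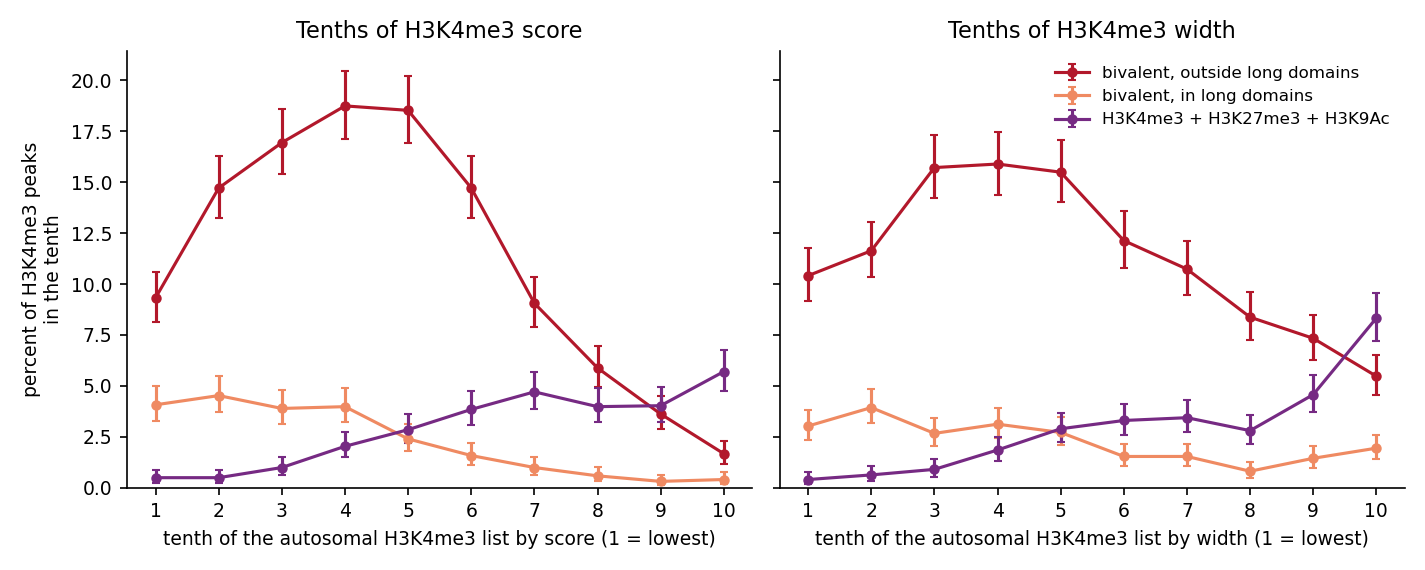
Percentage of autosomal H3K4me3 peaks in each of 10 equal parts of the list, ordered by score (left) or width (right), that were bivalent outside long domains, bivalent in long domains or marked by all 3 of H3K4me3, H3K27me3 and H3K9Ac. Bars are exact 95% binomial intervals, and the red line is highest in part 4 in both panels.

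A small set of bivalent peaks had high H3K4me3 scores, with 37 in the highest-scoring part of the list. The highest score among them, 3100, a value that 106 autosomal H3K4me3 peaks share, was held by 2. The first ran on chromosome 2 from 494774590 to 494782405 (7816 bp) and carried 4 H3K27me3 peaks, which covered 69.5% of it. The second, on chromosome 2 from 52143639 to 52149026, carried a single H3K27me3 peak over 57.6% of its length. Next came the widest of all the bivalent peaks, 9376 bp on chromosome 1 from 445192488 to 445201863 with a score of 2593, of which 61.3% lay under H3K27me3. A peak on chromosome 2 from 336925060 to 336930948 scored 2575. The fifth, on chromosome 2 from 142511713 to 142518409, scored 2414 but owed its place in the class to an H3K27me3 peak of 855 bp with a score of 57.5, which covered 12.8% of it. These 5 strong peaks had no H3K9Ac peak closer than 17533 bp.

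H3K27me3 at these sites was usually a single peak, whose width varied widely relative to that of the H3K4me3 peak. Of the 2500 peaks, 2081 (83.2%) met 1 H3K27me3 peak, 400 met 2, 16 met 3 and 3 met 4. The highest-scoring H3K27me3 peak on each had a median width of 2010.5 bp (quartiles 1245 and 3228 bp) and was 1.05 times as wide as the H3K4me3 peak in the median (quartiles 0.640 and 1.98). The widths of both hardly varied together (Spearman rho 0.04, Pearson r 0.04, n = 2500). It was the wider of the pair in 52.8% of cases. The centres of both peaks lay a median of 722 bp apart.

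The overlap was extensive in most cases, although the rule asks for 1 bp. A median of 74.3% of the H3K4me3 peak lay under H3K27me3 (quartiles 45.6% and 100%), and 71.7% of the bivalent peaks (69.9% to 73.4%) had at least 50% of their bases there. Only 14 shared fewer than 50 bp, the smallest overlap being 11 bp, and 15 peaks with H3K4me3 alone lay less than 50 bp from an H3K27me3 peak. In the 2081 cases with 1 H3K27me3 peak, the H3K4me3 peak lay wholly inside it in 650 (31.2%), and the H3K27me3 peak lay wholly inside the H3K4me3 peak in 290 (13.9%). The H3K27me3 peak was displaced to higher coordinates in 581 (27.9%) and to lower coordinates in 560 (26.9%). The lists give no strand, so these sides cannot be read relative to transcription. Among the 419 peaks with several H3K27me3 peaks, 300 (71.6%) had H3K27me3 at both ends with a gap between. Both ends of the H3K4me3 and an H3K27me3 peak fell within 100 bp of each other in 26 cases.

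**Figure D3:**
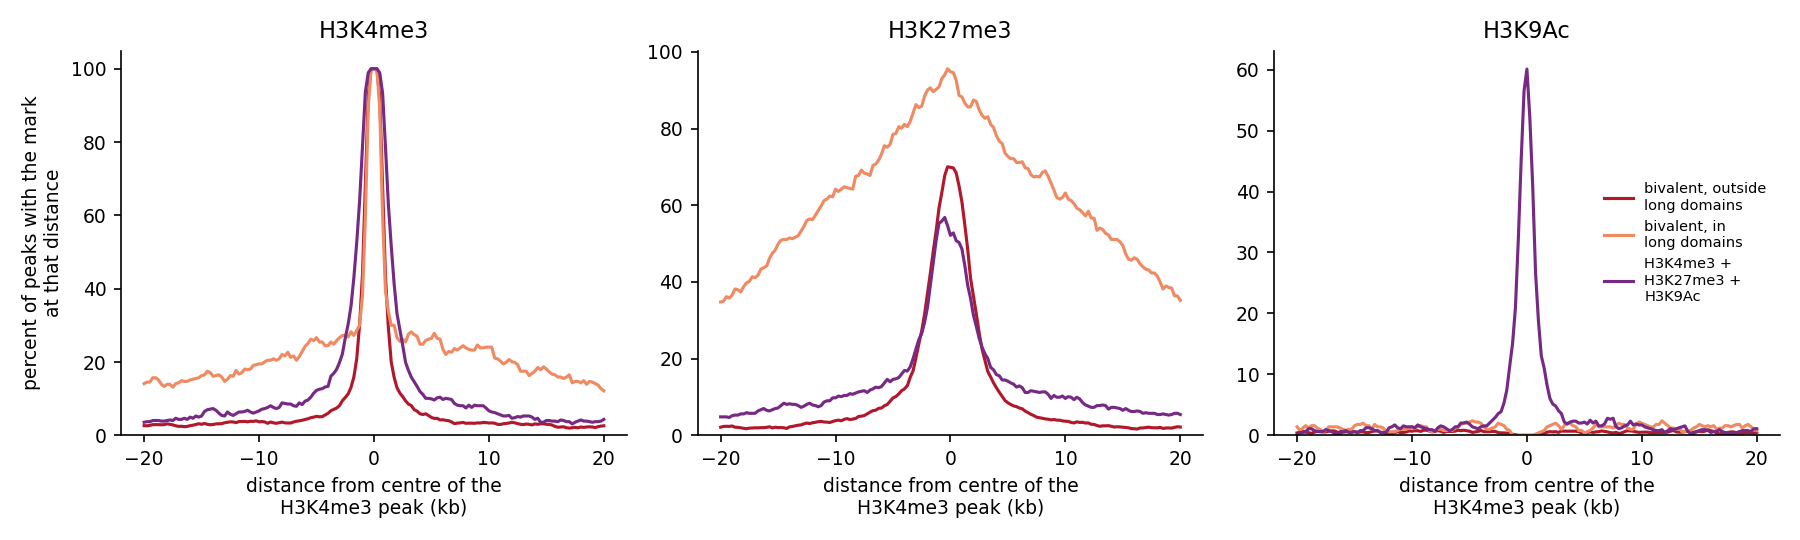
Percentage of H3K4me3 peaks with H3K4me3 (left), H3K27me3 (middle) or H3K9Ac (right) at each distance from their centre, in 250 bp steps to 20 kb on either side, for bivalent peaks outside long domains (red), bivalent peaks in long domains (orange) and peaks with all 3 marks (purple). H3K27me3 around the red class is below 10% at 5 kb, while the orange class stays above 70% there.

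The rule, which caps the domain length, bears on the flanks. H3K27me3 was present at the centre of 69.9% of the bivalent peaks outside long domains, against 94.8% of those in long domains and 52.2% of peaks with all 3 marks. At 5 kb on the side of lower and higher coordinates it was present at 9.76% and 8.48% of peaks outside long domains, against 78.5% and 72.8% in long domains and 14.6% and 14.1% for peaks with all 3 marks. H3K27me3 stood on 50% or more of the bivalent peaks over a stretch of 2.5 kb about the centre, and H3K4me3 over 1.5 kb. At 10 kb on the lower side another H3K4me3 peak was present at 3.68% of the bivalent peaks outside long domains, against 19.5% of those in long domains.

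H3K27me3 peaks that met these H3K4me3 peaks were stronger than H3K27me3 peaks without H3K4me3. The 2805 H3K27me3 peaks on bivalent peaks outside long domains had a median H3K27me3 score of 150 and a median width of 1751 bp. The 2935 H3K27me3 peaks outside long domains that touched no H3K4me3 peak had a median score of 81.9 and a median width of 1160 bp, and the 1072 in long domains a median score of 418 and a median width of 3089 bp. The 798 H3K27me3 peaks on peaks with all 3 marks, in or outside long domains, had a median score of 122 and a median width of 1530 bp. Here too a wider peak has more room to meet a peak of the other list. Ranked by score, 24.3% of the lowest 10th of autosomal H3K27me3 peaks lay on a bivalent peak outside long domains (21.3% to 27.5%). The share was 52.1% in part 9 (48.5% to 55.8%) and 29.2% in part 10, where 56.6% of the peaks belonged to long domains.

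The scores of both marks on the same peak hardly varied together. Across the 2500 peaks the H3K4me3 score and the highest H3K27me3 score gave a Spearman rho of -0.07 and a Pearson r of -0.06, from libraries that share chromatin. The rule bears on the range of both scores. It leaves out peaks with all 3 marks, whose median H3K4me3 score was 658. It also leaves out long domains, whose H3K27me3 peaks had a median score of 418. The correlation over all peaks with both marks was not computed. The 2 largest H3K27me3 scores stood on H3K4me3 peaks that scored below the median of 213. On chromosome 1 an H3K27me3 peak of 13572 bp, from 92799688 to 92813259, scored 3198 and held an H3K4me3 peak of 2111 bp that scored 137. On chromosome 2 the H3K27me3 peak from 203247980 to 203256872 scored 3137, and the H3K4me3 peak inside it, 771 bp wide, scored 52.6. Both of these H3K4me3 peaks lay wholly under H3K27me3, as did the other 3 of the 5 with the highest H3K27me3 scores. Those 3 had H3K4me3 scores of 520, 342 and 341, above that median. Their H3K27me3 peaks scored 3100, a value that 125 autosomal H3K27me3 peaks share.

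Wide H3K4me3 peaks that were covered over most of their length were also present. On chromosome 5 the peak from 32759465 to 32768631 spanned 9167 bp, scored 536 and lay entirely inside an H3K27me3 peak of 10603 bp. Another on chromosome 1 from 315858753 to 315865591 (6839 bp, score 1507) had 98.0% of its bases under 3 H3K27me3 peaks. On chromosome 6 the peak from 68187181 to 68193612 (6432 bp, score 1222) had 98.2% of its bases under a single one. At the other side, the peak on chromosome 4 from 290879610 to 290887767 was 8158 bp wide with a score of 1736, and only 21.7% of it lay under H3K27me3. The peak on chromosome 3 from 257248611 to 257257521 (8911 bp, score 2053) had 32.7% of its bases there. For that on chromosome 1 from 311126496 to 311135390 (8895 bp, score 1566) it was 38.9%.

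Peaks that lay mostly under H3K27me3 had lower H3K4me3 scores than the others. The median H3K4me3 score was 303 for the 193 peaks with at most 25% under H3K27me3 and 334 for the 516 peaks with 25% to 50%. The median was 255 for the 556 peaks with 50% to 75% and 155 for the 1235 peaks above that. In the same order the median H3K27me3 score was 78.2, 89.4, 139 and 343. A narrow H3K4me3 peak is more easily covered, and the median H3K4me3 widths were 2037, 2190, 1880 and 1553 bp.

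The 2500 peaks were spread over 2229 H3K27me3 domains of at most 20 kb, which is 51.9% of the 4297 such autosomal domains. Most stood alone, with 2000 domains holding 1 bivalent peak, 198 holding 2 and 31 holding 3 or more, up to 5. For 1358 of the peaks (54.3%) the domain was a single H3K27me3 peak, and the median domain length was 3319 bp (quartiles 1599.5 and 5758 bp). An H3K9Ac peak touched 61 of the 2229 domains outside the bivalent peak itself.

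Longer domains held a bivalent peak more often, while the number of bivalent peaks per 100 kb of domain was lower. A bivalent peak was present in 29.9% of the 942 domains up to 1 kb, 43.1% of those of 1 to 2 kb, 64.0% of those of 2 to 5 kb, 67.3% of those of 5 to 10 kb and 71.3% of the 258 domains of 10 to 20 kb. Beyond the limit it was present in 87.9% of the 173 domains of 20 to 50 kb and 91.3% of the 23 longer ones. A longer domain meets more peaks by its length. Per 100 kb of domain the number of bivalent peaks was 36.4, 30.9, 20.4, 12.6 and 8.45 in the classes to 20 kb. It was 8.18 in that of 20 to 50 kb. A short domain that meets a single peak gets a high number by its small length, so part of this decline is set by the measure.

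The H3K27me3 score was higher the longer the domain, while the H3K4me3 score was highest at 1 to 2 kb and lowest in the longest domains. The median of the highest H3K27me3 score per peak was 57.5 in domains up to 1 kb, 107, 219 and 392 in the next classes and 783 in domains of 10 to 20 kb. The median H3K4me3 score was 217, 253, 238, 196 and 140 in the same order. Score and width of the highest-scoring H3K27me3 peak rose together (Spearman rho 0.94, Pearson r 0.93, both from the same list). For 54.3% of the bivalent peaks the domain was a single H3K27me3 peak, so domain length and H3K27me3 score are not independent. Just under the 20 kb limit, a domain of 19914 bp on chromosome 3 from 94845060 to 94864973 held 2 bivalent peaks with scores up to 310. Another of 19840 bp on chromosome 4 from 99815724 to 99835563 held 1 with a score of 57.1. Just over it, a domain of 20021 bp on chromosome 5 from 182413615 to 182433635 held 1 with a score of 83.9, and 1 of 20023 bp on chromosome 3 from 93073010 to 93093032 held 1 with a score of 77.2.

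**Figure D4:**
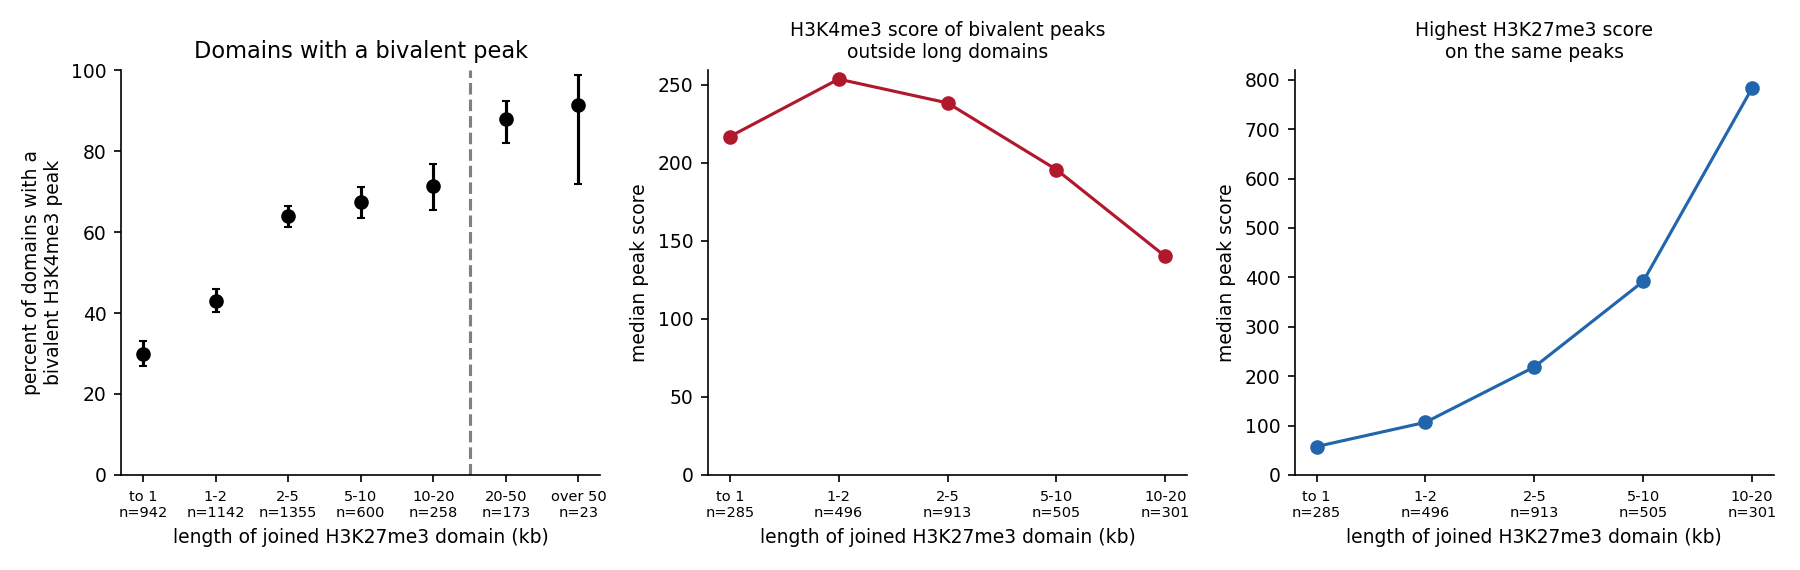
Left, percentage of joined autosomal H3K27me3 domains that hold a bivalent H3K4me3 peak, by domain length in kb, with exact 95% binomial intervals and a dashed line at the 20 kb limit. Middle and right, median H3K4me3 score and median of the highest H3K27me3 score of the bivalent peaks outside long domains, each in the score of its own list, by domain length. The H3K27me3 median reaches 783 in domains of 10 to 20 kb, where the H3K4me3 median is 140.

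Bivalent peaks outside long domains lay farther from H3K9Ac, in the median, than the other classes of H3K4me3 peak without H3K9Ac. Distances from positions placed at random were not computed. The rule bars an H3K9Ac peak on the H3K4me3 peak but sets no distance. The nearest H3K9Ac peak was a median of 99829 bp away (quartiles 38127 and 217117 bp), against 73242 bp for bivalent peaks in long domains and 62357 bp for peaks with H3K4me3 alone. Within 5 kb of an H3K9Ac peak there were 142 of the 2500 peaks, 5.68% (4.81% to 6.66%), against 13.7% of bivalent peaks in long domains and 13.1% of peaks with H3K4me3 alone. Within 20 kb the shares were 15.1%, 27.8% and 26.8%. The closest pair was 11 bp apart, and 1 bivalent peak had H3K9Ac less than 50 bp away. On the other side of that limit, 2 peaks with all 3 marks owed their class to less than 50 bp of H3K9Ac.

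**Figure D5:**
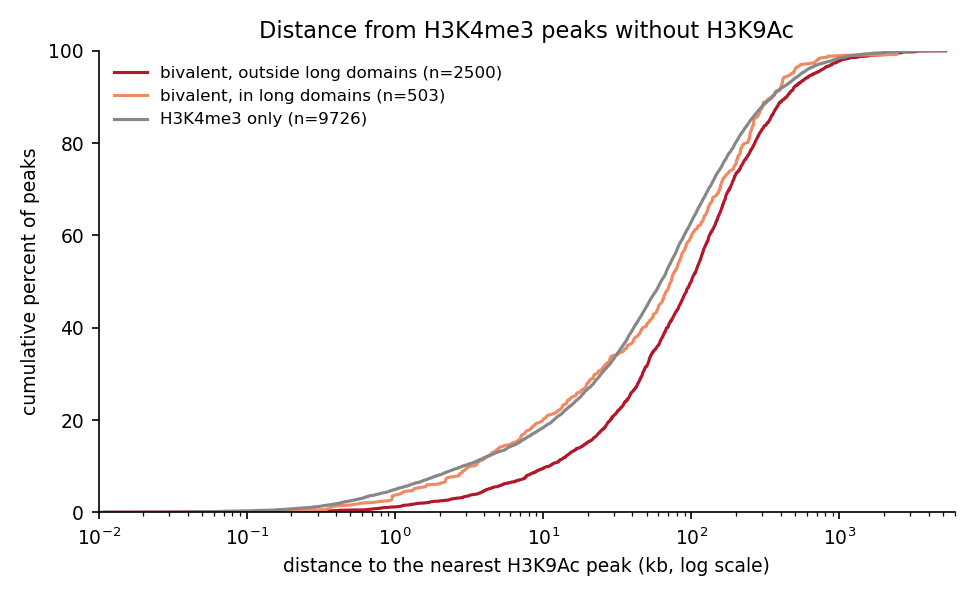
Cumulative percentage of autosomal H3K4me3 peaks without H3K9Ac by distance to the nearest H3K9Ac peak (kb, log scale), for bivalent peaks outside long domains, bivalent peaks in long domains and peaks with H3K4me3 alone. The red curve lies to the right of the others through the middle of the range, with medians of 99829, 73242 and 62357 bp in that order.

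At matched H3K4me3 score, in each of the 10 parts of the list, the median distance to H3K9Ac was greater for bivalent peaks outside long domains than for peaks with H3K4me3 alone. Set against bivalent peaks in long domains it was greater in 9 of the parts but not in part 2, at 86579 bp against 89769 bp. Parts 7 to 10 held only 22, 13, 7 and 9 bivalent peaks in long domains. Against peaks with H3K4me3 alone, the median distance was 104085 bp against 64874 bp in the lowest part. It was 92831 bp against 66541 bp in part 5 and 182892 bp against 60434 bp in part 9. Looked at from the distance, 5.46% of the 531 H3K4me3 peaks without H3K9Ac that lay within 1 kb of an H3K9Ac peak were bivalent outside long domains (3.69% to 7.75%). The share was 11.8% at 1 to 5 kb, 14.4% at 5 to 20 kb, 19.2% at 20 to 100 kb and 24.8% at 100 to 500 kb (23.5% to 26.1%). Beyond 500 kb it was 24.4% (21.5% to 27.6%). Peaks within 1 kb of H3K9Ac had a median width of 1586 bp when bivalent, and those beyond 500 kb one of 2220 bp. With H3K4me3 peaks less than 1 kb apart joined into one, the shares within 20 kb of H3K9Ac were 12.3% for bivalent peaks outside long domains, 20.6% for those in long domains and 19.7% for peaks with H3K4me3 alone.

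The 3 most remote bivalent peaks lay megabases from any H3K9Ac peak. On chromosome 1 the peak from 675161075 to 675164333, with an H3K4me3 score of 596 and 40.7% of its length under H3K27me3, was 5204 kb away. On chromosome 4 a weak peak from 253348108 to 253348854, with a score of 77.7, was 3413 kb away and also overlapped H3K9me3. On chromosome 3 a peak of 8131 bp from 384226756 to 384234886, with a score of 1298 and 75.1% under H3K27me3, was 3347 kb away. Across all bivalent peaks outside long domains, the median number of other H3K4me3 peaks centred within 100 kb was 2, as it was for all autosomal H3K4me3 peaks, against 5 for bivalent peaks in long domains. The median number of H3K9Ac peaks in that range was 0, against 1 for bivalent peaks in long domains and 1 for peaks with H3K4me3 alone.

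H3K9me3, a mark of constitutive heterochromatin that the rule did not use, was present on 32 of the bivalent peaks outside long domains, 1.28% (0.877% to 1.80%). The shares were 3.38% for bivalent peaks in long domains (1.98% to 5.36%), 1.86% for peaks with all 3 marks, 0.275% for acetylated peaks without H3K27me3 and 0.226% for peaks with H3K4me3 alone (0.142% to 0.342%). The share of bivalent peaks outside long domains was above those of both classes without H3K27me3, with intervals that cover the counting of peaks only. It was 0.482% with the top-scoring 50% of every list, and the shares of the other classes were not recomputed there. Those 32 peaks had a median H3K4me3 score of 134 and were a median of 149750 bp from H3K9Ac. The other 2468 had a median score of 215 and were a median of 99371 bp away. Of the overlapping H3K9me3 peaks 20 lay wholly within the H3K4me3 peak.

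The strongest H3K9me3 peak among them scored 666 and lay on chromosome 7 from 15707196 to 15709722. It started at the same base as the H3K4me3 peak, which ended at 15709680 with a score of 1220, and the H3K27me3 peak there ran from 15707106 to 15709682. All 3 lists thus placed nearly the same interval. The next H3K9me3 scores were 331 and 212 at peaks on chromosome 3 starting at 509449264 and 501665706, 258 at one on chromosome 5 starting at 301236452 and 252 at one on chromosome 8 starting at 79102155. Sequence at these intervals was not analysed here.

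Bivalent peaks outside long domains were found on every autosome. They averaged 0.731 per Mb of the span between the first and last peaks, from 0.472 per Mb on chromosome 7 to 0.828 per Mb on chromosome 1. As a share of the H3K4me3 peaks of a chromosome the range was narrower, from 9.78% on chromosome 3 (8.76% to 10.9%) to 13.0% on chromosome 5 (11.3% to 14.8%). Chromosome 7, with the lowest density of bivalent peaks, also had the lowest density of H3K4me3 peaks, at 4.45 per Mb against 6.46 per Mb over all 8. Its 123 bivalent peaks, the fewest of the 8 chromosomes, had the highest median H3K4me3 score, 282, and the lowest median H3K27me3 score, 139. No interval was computed for these medians, and the differences between chromosomes were not tested.

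Most bivalent peaks outside long domains had no other of their class within 20 kb. Bivalent peaks in long domains were not counted as neighbours. The spacing of positions placed at random was not computed, so these values do not tell whether the peaks are scattered or clustered. The median gap between neighbours was 499120 bp (quartiles 107693 and 1533309 bp), and 1885 of the 2500 (75.4%) had no other within 20 kb, a share that the choice of domains and peaks moves. Of 3425 bins of 1 Mb, 2075 held none and 746 held 1. Only 57 bins held 5 or more, and these contained 14.7% of the peaks. Those 57 bins held a median of 23 H3K4me3 peaks, a count that their choice raises, and 7 acetylated ones, against 5 and 2 over all bins, 474 of which held no H3K4me3 peak. Across bins the numbers of bivalent and of acetylated H3K4me3 peaks had a Spearman rho of 0.32 and a Pearson r of 0.34, from bins that share their H3K4me3 list.

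The densest bin, on chromosome 2 from 494 Mb, held 15 bivalent peaks among 64 H3K4me3 peaks, together with 5 bivalent peaks in long domains and 22 acetylated ones. Its bivalent peaks belonged to 9 H3K27me3 domains and had a median H3K4me3 score of 741, in a range from 87.1 to 3100. The nearest H3K9Ac peak to any of them was 297 bp away. Next was the bin on chromosome 2 from 193 Mb, with 11 bivalent peaks in 8 domains and H3K27me3 scores from 50.8 to 2119. The bin on chromosome 3 from 447 Mb held 10, beside another 10 in long domains and 10 acetylated peaks.

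When bivalent peaks less than 20 kb apart were linked, 274 runs of 2 or more contained 615 of them. The longest by number, on chromosome 2 from 270236608 to 270299673, had 6 peaks in 63.1 kb and 4 H3K27me3 domains, with H3K4me3 scores between 70.0 and 441 and no acetylated peak. Runs of 5 lay inside single H3K27me3 domains on chromosome 4 from 180823111 to 180836648 and on chromosome 1 from 192109896 to 192122168. In the first, H3K27me3 scored up to 2598 and H3K4me3 at most 298. In the second, H3K27me3 scored at most 339 and H3K4me3 at most 383. Among the runs of 4, that on chromosome 5 from 237687555 to 237719409 had 1 acetylated peak inside it. The run on chromosome 2 from 494771372 to 494800797 lies in the densest bin and includes the 7816 bp peak with a score of 3100.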

How the data were processed

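Per the labels' protocols, sister fetuses' chromatin, cut with micrococcal nuclease, was combined and split evenly over the antibodies. The submitters' processing notes list the tools CASAVA 1.7, Bowtie 1.1.2 and MACS 1.0.1 but no settings. The build, any control, the threshold and the combination of a mark's 2 libraries are details not given in the sources used here. The score of each peak is the authors' deposited value, between 50.01 and 3233 in the H3K4me3 list, and its calculation is not stated per the file headers. No score was compared between lists.

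Peaks were intersected, joined and classed with Python 3.11.15, numpy 2.4.6, pandas 2.3.3 and scipy 1.17.1, and plotted with matplotlib 3.10.9. The intersection code was tested on simulated data. A distance is the number of bases between the nearest ends of peaks. The length of a chromosome is the span between its outermost peaks over all marks, 3418 Mb in all for chromosomes 1 to 8. A gene table of another assembly was not used.

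The class of peaks, the splits and the rule for named regions were chosen with earlier results of these data known. The regions named were the 5 highest by H3K4me3 score, H3K27me3 score, width, bases under H3K27me3 and H3K9me3 score, the 3 farthest from H3K9Ac, the 2 domains on either side of 20 kb, the 3 densest bins and the 5 longest runs. Some of them are given in ranges or by score only, and some are not described. Depth is unknown, so no floor is given, and H3K9me3, with 699 autosomal peaks, limits the overlap that can be seen.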

Additional observations from a re-analysis of the deposited data

Results flagged for a closer look

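Peaks that meet the same rule were present on sequence outside the comparisons above. On X, 153 of 500 H3K4me3 peaks (30.6%, exact 95% interval 26.6% to 34.8%) carried H3K27me3 without H3K9Ac outside long domains, with a median H3K4me3 score of 154 and a median width of 1649 bp. Another 128 lay in long domains. On unplaced sequence, 235 of 1401 (16.8%, 14.9% to 18.8%) did so, with a median score of 176 and a median width of 2263 bp. The share on chromosomes 1 to 8 was 11.3%, and the differences from it were not tested.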

How the results depend on the processing

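The 11 summary values were recomputed under 10 alternatives, and 63 of the 110 recomputed values stayed within the exact binomial interval of the value reported (for the number of bivalent peaks, within 1.5 times). With the top-scoring 50% of the H3K4me3 and H3K27me3 lists there were 635 bivalent peaks outside long domains (5.51% of H3K4me3 peaks, median score 524, median distance to H3K9Ac 120689 bp). With the top-scoring 50% of every list there were 830 (7.21%, score 565, distance 184725 bp). The share was 9.86% when the overlap had to reach 50% of the shorter peak, 12.2% with H3K27me3 peaks less than 1 kb apart joined, 9.96% and 13.2% with domains over 10 or 50 kb left out, and 12.04% with X and unplaced sequence, where the distance was 111825 bp. The median score was 227 and 196 with domains over 10 or 50 kb left out and 238 with H3K4me3 peaks less than 1 kb apart joined. The share with another bivalent peak within 20 kb, 24.6% as reported, moved under 8 of the 10 alternatives, to 7.24% and 9.40% with the 2 top-scoring settings, 14.1% with joined H3K4me3 peaks and 33.6% with domains over 50 kb left out. The median width, 1794.5 bp as reported, was 2775 and 2888 bp with the top-scoring settings. Joining H3K4me3 peaks lowered the share within 5 kb of H3K9Ac to 2.99%, against 5.68%. The share on H3K9me3 was 0.482% with the top-scoring 50% of every list and 2.91% with X and unplaced sequence. Under all 10 alternatives the median distance to H3K9Ac was greater than that of peaks with H3K4me3 alone, and greater than that of bivalent peaks in long domains, where the narrowest margin was 184725 bp against 184612 bp with the top-scoring 50% of every list. Apart from the settings whose construction sets them, the cause of these shifts was not tested. No paired analysis was possible because both libraries of a mark share 1 pooled list. The same holds for leaving out a replicate.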
